A study of Mus musculus with 15 samples.

Results

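The difference between females and males was examined in the pituitary gland of mice that lacked the pituitary enhancer (PE) of Nr5a1 on one chromosome (PE+/-). The 8 samples, 4 PE+/- females and 4 PE+/- males, were taken by genotype and sex from the labels, out of 15 pituitary samples in the series. The other 7 came from mice without the enhancer on either chromosome (PE-/-), 3 females and 4 males. The enhancer lies in intron 6 of Nr5a1, was deleted by genome editing, and drives the gene in gonadotropes. Both PE+/- groups thus carried 1 deleted copy, and no pituitaries with 2 intact copies entered these comparisons. The PE+/- mice were the controls of the study, and their ages are not given in the sources used here. Each sample was total RNA of a whole pituitary gland sequenced by RNA-seq. In the study's labels nothing says that samples of a group came from separate animals, so the p-values measure the spread between samples. Only autosomal genes are reported.

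The anterior pituitary holds several kinds of hormone cells, among them somatotropes (growth hormone), lactotropes (prolactin), corticotropes (proopiomelanocortin), thyrotropes (thyroid-stimulating hormone) and gonadotropes (luteinizing and follicle-stimulating hormones). Gonadal steroids act back on this gland, and estrogen is a known stimulus of lactotropes and of galanin in rodents. Hormone cells fold their products in the endoplasmic reticulum (ER), store them in granules and release them by regulated exocytosis, next to a matrix laid down by stromal and folliculostellate cells.

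The 8 libraries held 12982794 to 23451887 estimated counts, and about 4 counts stood for 1 fragment. Levels are given as CPM, counts scaled to a fixed library total, on library sizes scaled by trimmed means. X- and Y-linked transcripts matched the labelled sex in 8 of 8 libraries. The first principal component (22.9% of the variance) set the females (scores -74.5 to -32.1) apart from the males (36.9 to 55.8). Nr5a1 had 34.1, 39.6, 35.5 and 44.2 CPM in the PE+/- females 1 to 4 and 80.3, 34.1, 45.2 and 39.5 CPM in the PE+/- males 1 to 4. The groups overlapped (log2 fold change -0.38, SE 0.268, edgeR quasi-likelihood adjusted p = 0.609), and the targeted gene was thus expressed in every one of the 8 samples. In the PE-/- libraries it reached at most 0.912 CPM. Fewer cells of a type and less RNA per cell cannot be told apart in whole glands.

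Of 16548 autosomal genes tested, 100 (0.604%) were past an edgeR adjusted p of 0.05. Higher in females were 63 genes (0.381%), 54 of them protein coding, and higher in males were 37 (0.224%), 33 of them protein coding. In all 100 the 4 female and 4 male values did not overlap. The median log2 fold change, female minus male, was 1.85 for the 63 genes and -1.41 for the 37, against -0.0105 for all genes tested. With genes at the detection floor of 12 counts (3 fragments) in all 4 libraries of one sex set at their bound, the medians were 1.82 and -1.39. A log2 fold change past 2 was found in 29 of the 63 and in 11 of the 37. At an unadjusted p under 0.05 there were 1184 genes higher in females (7.15%) and 1024 higher in males (6.19%), and groups separated fully in 882 (5.33%) and 714 (4.31%) genes. The calls depended on single libraries. There were 98 without PE+/- female 1 and 24 to 48 without any 1 of the other 7 libraries, with the fewest without PE+/- male 4. These calls were not all among the 100. Of the 100, 67 stayed past the threshold without PE+/- female 1 and 21 to 39 without any 1 of the other 7. Past the threshold in all 8 such fits were 15 genes (Cd63, Cntnap1, Col1a2, Creb3l1, Crhbp, Gm14296, Gm15577, Gm4319, Lhfpl3, Megf10, Mfge8, Nmnat2, Pak7, Ramp1 and Zfp715), and 25 of the 100 were past it in none. Every other call named here was lost in at least 1 of them. PE+/- female 1 was the lowest female in 29 of the 63 female-higher genes.

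**Figure D1:**
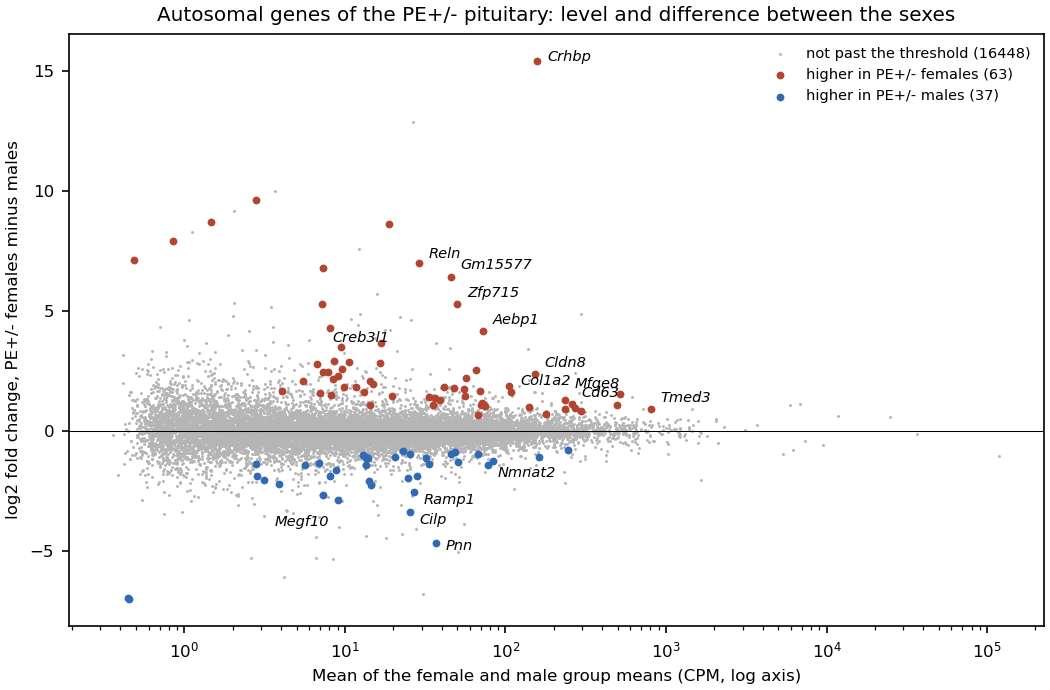
Each point is 1 autosomal gene, placed by its mean level over both sexes (CPM, log axis) and its log2 fold change between PE+/- females and males (n = 4 each). The 63 genes higher in females (red) and 37 higher in males (blue) are past an edgeR adjusted p of 0.05, and Crhbp lies highest. Fitted values of genes at 0 in one sex, such as Crhbp, have no upper bound.

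The leading transcript of the females was Crhbp (MSTRG.7037, on the minus strand of chromosome 13 from 95431371 to 95444924 in mm10), the secreted protein that binds corticotropin-releasing hormone. It had 332, 160, 465 and 306 CPM in the females and 0 CPM in each of the 4 males. All 4 females carried it, and their mean was at least 439-fold above the male floor of 12 counts (edgeR adjusted p = 0.00503). Ramp1 (MSTRG.877, chromosome 1, 91179822 to 91225196, plus strand) led the males. It encodes the accessory protein that turns the calcitonin receptor-like receptor into a receptor for calcitonin gene-related peptide. Ramp1 had 6.41, 9.92, 7.09 and 8.32 CPM in females and 51.3, 39.1, 51.3 and 41.8 CPM in males. It was 5.76-fold higher in males (log2 fold change -2.53, SE 0.188, edgeR adjusted p = 0.00333), and the lowest male lay well above the highest female.

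The bases just upstream of Crhbp, of Ramp1 and of Mfge8, the matrix transcript with the highest CPM among the calls, are shown because these genes mark both directions. They are RefSeq promoter sequences on GRCm38.p6 (mm10), 5′ to 3′ on the strand of the gene, and bases inside the annotated gene are left out. They cover chr13:95444925-95445081 (minus strand, 157 bases), chr1:91179572-91179821 (plus strand, 250 bases) and chr7:79149061-79149310 (minus strand, 250 bases). Capitals mark AGGTCA, the half-site of an estrogen response element, on either strand.
Crhbp: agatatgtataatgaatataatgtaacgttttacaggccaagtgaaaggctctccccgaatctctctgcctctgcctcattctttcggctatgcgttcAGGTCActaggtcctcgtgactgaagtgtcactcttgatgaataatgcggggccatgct
Ramp1: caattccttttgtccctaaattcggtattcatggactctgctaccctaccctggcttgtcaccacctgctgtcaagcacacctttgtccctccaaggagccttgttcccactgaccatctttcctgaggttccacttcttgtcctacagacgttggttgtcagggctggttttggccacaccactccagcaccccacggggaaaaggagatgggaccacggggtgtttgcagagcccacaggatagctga
Mfge8: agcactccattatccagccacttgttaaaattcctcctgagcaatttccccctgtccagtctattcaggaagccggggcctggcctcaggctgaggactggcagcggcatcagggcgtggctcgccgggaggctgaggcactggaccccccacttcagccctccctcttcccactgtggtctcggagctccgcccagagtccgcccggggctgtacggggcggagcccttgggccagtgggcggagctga
Promoters were found for 49 of the 63 female-higher and 24 of the 37 male-higher genes. In the 250 bases before the start, AGGTCA stood in 8 of the 49 (16.3%) and 4 of the 24 (16.7%), against 13.2% of 11096 promoters of genes tested. The full palindromic estrogen and androgen response elements stood in 0 of either set and in 2 and 1 of the 11096. TGACGT, the core of the cAMP response element, stood in 2 of the 49 (Cd63 and Mrpl49), in 0 of the 24 and in 11.1% of all. The site CAAGGTCA of Ad4BP/SF-1, the product of Nr5a1, which holds AGGTCA, stood in 1 of the 49 (Msrb2), in 0 of the 24 and in 1.21% of all. Both strands were searched.

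The other leading transcripts higher in females included Cd63 and Cldn8. Cd63, a tetraspanin of late endosomes and secretory vesicles, had 334, 385, 340 and 364 CPM in females and 157, 169, 182 and 144 CPM in males. No male came near the lowest female, and the difference was 2.18-fold (log2 fold change 1.12, SE 0.118, edgeR adjusted p = 0.00773). The processed copy Cd63-ps, which can take reads of Cd63, had the same direction (1.09, or 0.62 with the overlapping Hsd17b4 added). Cldn8, a claudin of tight junctions, had 337, 238, 242 and 208 CPM in females and 45.6, 40.2, 75.1 and 35.1 CPM in males. Its means were 256 ± 56.1 and 49.0 ± 17.9 CPM (SD, n = 4 each, log2 fold change 2.39, edgeR adjusted p = 0.0118). Cntnap1, an adhesion protein of axon-glia junctions, had means of 18.5 ± 3.31 and 5.10 ± 0.786 CPM, and its log2 difference of 1.84 became 1.19 with overlapping genes, mainly Ccr10, added. For Pak7, a p21-activated kinase, they were 13.3 ± 4.36 and 2.38 ± 0.332 CPM, with PE+/- female 3 highest. C1qtnf6, a secreted C1q- and TNF-related protein, had 15.1 ± 5.86 and 2.02 ± 0.401 CPM. Lhfpl3 had 29.0 ± 2.36 and 10.4 ± 1.53 CPM.

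Zfp715, a zinc finger gene, had 98.5, 109, 101 and 81.5 CPM in females and 4.09, 0.546, 1.63 and 3.69 CPM in males. The groups lay far apart in PE+/- mice (log2 fold change 5.31, SE 0.59, edgeR adjusted p = 0.0102), but in PE-/- mice both sexes held libraries at either level, 1.48 to 94.9 CPM in females and 2.33 to 100 CPM in males. Pnn, a splicing-associated nuclear protein gene called higher in males, was of the same kind. It had 2.22 to 3.27 CPM in the females, 6.57 CPM in PE+/- male 1 and 83.5 to 99.9 CPM in the other 3 males, and its PE-/- values ran from 0.886 to 89.3 CPM in females and from 3.27 to 64.4 CPM in males. Some calls overlapped another gene. Gm15577 (log2 fold change 6.44) lies in Negr1, and the sum of both differed by 0.71. The unnamed or predicted loci Gm4319, Gm14296 and AI506816 were also among the 15 leading female-higher genes, with log2 fold changes of 3.49, 1.82 and 1.89.

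Among the transcripts higher in males, Megf10, a receptor for the uptake of apoptotic cells, had 2.45, 1.78, 1.4 and 2.38 CPM in females and 10.7, 14.9, 12.5 and 12.3 CPM in males. The groups were far apart (log2 fold change -2.66, SE 0.236, edgeR adjusted p = 0.00503). Nmnat2, an enzyme of NAD synthesis, had 44.2, 34.6, 43.4 and 46.2 CPM in females and 113, 122, 126 and 94.4 CPM in males. Each male was at least at 94.4 CPM and each female at most at 46.2 CPM (log2 fold change -1.43, SE 0.148, edgeR adjusted p = 0.00773). Nptx1, a neuronal pentraxin, had means of 5.03 ± 0.951 CPM in females and 24.2 ± 7.86 CPM in males. For Pias3, a SUMO ligase that inhibits STAT3, the means were 11.9 ± 1.42 and 44.3 ± 13.4 CPM. The transcription factor gene Zfp423 had 31.1 ± 3.74 and 60.6 ± 6.58 CPM, and Zfp750 had 8.44 ± 0.94 and 18.6 ± 2.5 CPM. Nefh, the heavy neurofilament chain, had 8.70 ± 1.30 and 19.1 ± 1.82 CPM. Slc45a3, a membrane transporter, had 6.71 to 13.2 CPM in females and 23.0 to 51.6 CPM in males (log2 difference -1.97, or -1.24 with the overlapping Elk4 added), and the adaptor gene Fyb2 had 2.18 ± 0.896 and 15.9 ± 7.11 CPM. The adhesion molecule Alcam had 131, 86.1, 87.2 and 114 CPM in females and 202, 227, 200 and 252 CPM in males, a difference of 2.10-fold. The last of the 15 leading male-higher genes were 1500009L16Rik, Unc13c, Gm44220, 9430064I24Rik and Fam196a (log2 fold changes -2.10, -1.90, -0.99, -1.64 and -1.88). With the overlapping gene added, the difference became -0.065 for 9430064I24Rik (Hsd3b7) and -0.79 for Fam196a (Dock1).

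**Figure D2:**
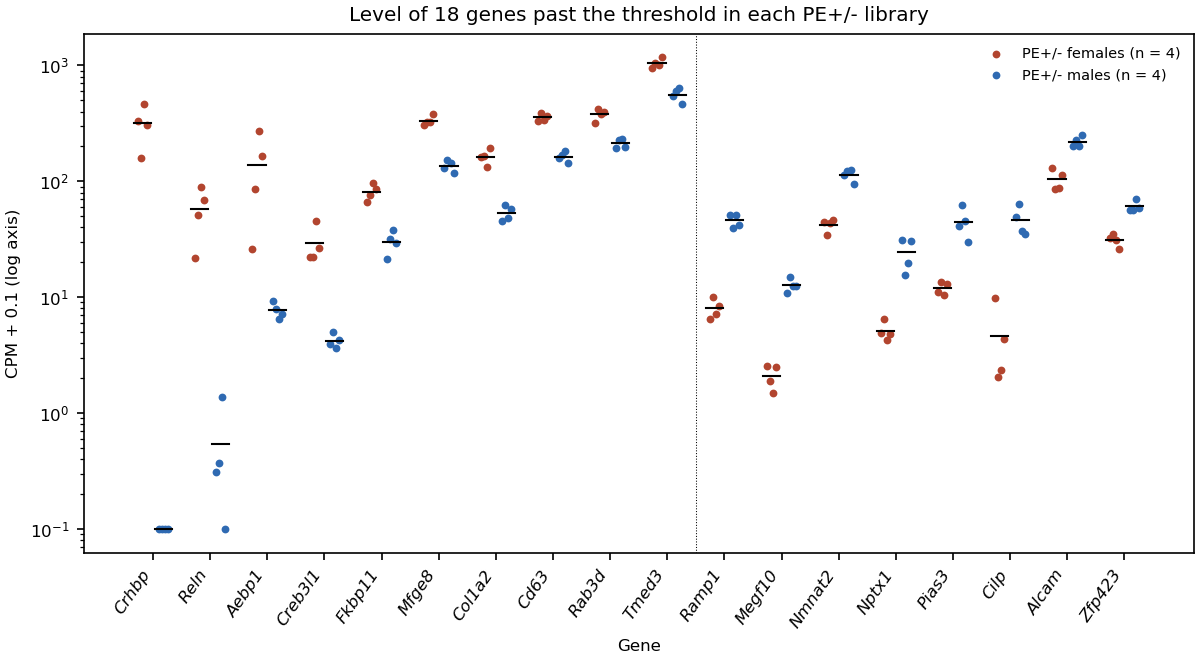
Level (CPM + 0.1, log axis) of 18 genes past the threshold in each PE+/- library, with the group mean as a bar (n = 4 a sex). The 10 genes left of the dotted line were higher in females and the 8 right of it in males, and no female point overlaps a male point of the same gene.

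None of the hormone genes passed the threshold with all 8 libraries, though Gh, Lhb and Fshb had separate groups. Gh, growth hormone, had 106134, 81831, 66998 and 57756 CPM in females and 157953, 167704, 184428 and 131865 CPM in males. Every male lay above every female, by -1.04 on the log2 scale (SE of 0.228, edgeR adjusted p = 0.101). Lhb, the beta chain of luteinizing hormone, had 201, 244, 201 and 167 CPM in females and 578, 304, 456 and 347 CPM in males. These groups were also separate, by -1.05 on the log2 scale (SE of 0.222, edgeR adjusted p = 0.088). Fshb, the beta chain of follicle-stimulating hormone, had 364, 328, 161 and 1707 CPM in females and 3135, 2157, 3218 and 2192 CPM in males. PE+/- female 4 stood near the males but below each of them. The log2 fold change was -2.06 (SE of 0.683, edgeR adjusted p = 0.238), or -3.26 and past the threshold without PE+/- female 4 (edgeR adjusted p = 0.0211). Gh passed without PE+/- female 1 (-1.22, edgeR adjusted p = 0.0493). DESeq2 put Gh (adjusted p = 0.000378), Lhb (0.00156) and Fshb (0.0322) past the threshold. The sexes overlapped in Prl (29863 ± 5988 and 19699 ± 8352 CPM, log2 fold change 0.60, edgeR adjusted p = 0.45), in Pomc (-0.12, 0.943), in Tshb (-0.20, 0.916) and in Cga, the shared alpha chain (-0.40, 0.61).

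Of the 10 gonadotrope markers 0 passed in either direction and 3 had all males above all females (4.31% of all genes). In 9 the value was below 0, and the median log2 fold change was -0.73. Grem1, a secreted BMP antagonist, had 0, 2.03, 1.45 and 1.31 CPM in females and 40.1, 15.7, 24.8 and 22.4 CPM in males. These groups were far apart, and Grem1 lay just outside the threshold (log2 fold change -4.37, SE 0.757, edgeR adjusted p = 0.0503, DESeq2 adjusted p = 8.86e-08). Gnrhr, the receptor for gonadotropin-releasing hormone, had 95.0 ± 13.5 CPM in females and 146 ± 37.3 CPM in males (edgeR adjusted p = 0.23). Tgfbr3l had 109 to 166 CPM in females and 63.0, 37.2, 294 and 29.7 CPM in males, and Spp1 36.4 to 301 CPM in males against 51.2 to 95.2 CPM in females, so both overlapped. Foxl2 (log2 fold change -0.34) and Nr0b2 (-0.84) overlapped as well. The summed level of the 10 markers ran from 5952 to 8850 CPM in females and from 9491 to 17065 CPM in males.

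The 4 somatotrope markers had a median log2 fold change of -0.87, with 0 past the threshold and all 4 below 0. Their sum, nearly all of it Gh, was 57827 to 106214 CPM in females and 131990 to 184546 CPM in males. Ghrhr, the receptor for growth hormone-releasing hormone, had 59.1 ± 12.1 and 81.9 ± 16.3 CPM (edgeR adjusted p = 0.377). The growth hormone and IGF axis list held 26 tested genes, 0 past the threshold. In it 1 was fully separate toward females and 5 toward males (5.33% and 4.31% of all genes). In Igfbp5, an IGF binding protein, 3 females had 564 to 647 CPM, PE+/- female 4 had 66.7 CPM and the males had 821 to 941 CPM (edgeR adjusted p = 0.531). The 5 lactotrope markers had a median of 0.33, with 0 called. In that list Agtr1a, an angiotensin receptor, went the other way, with 34.9 ± 17.3 CPM in females and 114 ± 40.3 CPM in males (log2 fold change -1.71, edgeR adjusted p = 0.111). The 19 tested genes of prolactin and its control included 0 calls, with a median of 0.19. Medians were -0.21 over 5 corticotrope, -0.10 over 3 melanotrope and -0.38 over 4 tested thyrotrope markers, with 0 called in each. Overlapping groups were found in Tbx19 (log2 fold change -0.43), the transcription factor of the proopiomelanocortin lineage, in Pcsk2 (-0.10) and Oacyl (-0.061) of melanotropes, and in the deiodinase Dio2 (-0.035).

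The 12 tested estrogen-induced genes had 0 past the threshold but 5 fully separate toward females and 0 toward males (5.33% and 4.31% of all genes). Their median log2 fold change was 0.67. DESeq2 put 5 past the threshold, all higher in females (Greb1, Myc, Pgr, Rxfp1 and Vip), and with edgeR Gal and Myc passed without PE+/- female 1. For Gal, DESeq2 gave a log2 fold change of 4.89 but no adjusted p. Gal, galanin, a peptide of lactotropes, had 88.5, 752, 736 and 712 CPM in females and 10.7, 12.8, 48.7 and 4.89 CPM in males. PE+/- female 1 was the lowest female by far, and the log2 fold change was 4.89 (SE 0.94, edgeR adjusted p = 0.072). Rxfp1, the relaxin receptor, had 19.3, 29.0, 35 and 41.2 CPM in females and 0, 0.637, 1.63 and 0 CPM in males, just outside the threshold (5.73, edgeR adjusted p = 0.0503, DESeq2 adjusted p = 1.09e-06). Pgr, the progesterone receptor, had 33.9 CPM in females and 9.82 CPM in males (1.79, edgeR adjusted p = 0.112, DESeq2 adjusted p = 0.00199). Greb1 had 31.5 and 10.9 CPM (1.52, edgeR adjusted p = 0.208) and Myc 43.3 and 21.9 CPM (0.98, 0.0694). Ccnd1 overlapped (0.14). Esr1, estrogen receptor alpha, had 404 ± 33.4 CPM in females and 433 ± 118 CPM in males (-0.10, edgeR adjusted p = 0.891). In the list of steroid receptors and partners 0 of 12 passed, with Fkbp4 overlapping (-0.51), and Fkbp5, a chaperone of the glucocorticoid receptor, had 29.0 and 65.8 CPM (-1.18, edgeR adjusted p = 0.0871).

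Crhbp was the 1 call among 17 tested peptide ligands, whose median was -0.11, against 0.604% called of all genes. Of 21 tested receptors for hypothalamic hormones 0 passed and the median was -0.37. Their summed level was 322 to 365 CPM in females and 472 to 518 CPM in males. In this list 1 gene was fully separate toward females and 3 toward males (5.33% and 4.31% of all genes). Among them Sstr5, a somatostatin receptor, had 27.0 and 63.2 CPM (log2 fold change -1.23, edgeR adjusted p = 0.141). Oxtr, the oxytocin receptor, had 65.9 CPM in PE+/- female 3 and at most 3.46 CPM in the other 7 libraries. GnRH receptor signaling had 0 of 35 past the threshold and a median of -0.16. In it 1 gene was separate toward females and 5 toward males (5.33% and 4.31% of all genes). Gnas, the stimulatory G protein, had 61.7 CPM in PE+/- female 1, 756 to 988 CPM in the other females and 1240 to 1658 CPM in the males (edgeR adjusted p = 0.59). For Gna11 the means were 405 ± 33.6 and 404 ± 17.6 CPM. In activin, inhibin and BMP signaling 0 of 47 passed (median -0.19), with 0 separate toward females and 4 toward males (5.33% and 4.31% of all genes). Tgfbr1 had 10.8 CPM in PE+/- female 1 and 122 to 188 CPM in the other 7 libraries, and Tgfbr3 had 95.5 ± 16.8 and 156 ± 29.5 CPM (edgeR adjusted p = 0.153).

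Steroid metabolism had 0 of 13 tested genes past the threshold (median -0.067). Akr1c14, a 3-alpha-hydroxysteroid dehydrogenase, had 284, 364, 578 and 607 CPM in females and 32.2, 20.3, 276 and 18.9 CPM in males. PE+/- male 3 stood near the lowest female but below it, so the groups were separate. The log2 fold change was 2.40 (edgeR adjusted p = 0.298), or 4.27 and past the threshold without that male. Hsd17b12 (-0.25) overlapped. Of 5 tested steroid sulfotransferases and UDP-glucuronosyltransferases 0 passed (median -0.43), with Sult4a1 at 36.8 ± 8.71 and 49.3 ± 3.46 CPM and Sult5a1 at 3.82 ± 2.24 and 7.37 ± 0.74 CPM.

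The lists of collagens, matrix glycoproteins and proteoglycans, and matrix remodeling held 5 calls, all higher in females (0.381% of all genes). Col1a2, a chain of type I collagen, had 162, 165, 132 and 194 CPM in females and 45.5, 62.3, 48.0 and 57.4 CPM in males. The lowest female had more than the highest male, and the difference was 3.06-fold (log2 value 1.61 with an SE of 0.165, edgeR adjusted p = 0.00773). Col1a1, the other chain of type I collagen, overlapped, with 11.4 CPM in females and 12.3 CPM in males (log2 fold change -0.12, edgeR adjusted p = 0.944). Col1a2 was the 1 call among 28 tested collagens, which had a median of 0.091 (-0.053 to 0.24 without 1 library). They were fully separate toward females in 5 genes and toward males in 1 (5.33% and 4.31% of all genes). The other 4 toward females were Col11a1 (log2 fold change 1.4), Col27a1 (1.35), Col4a2 (0.46) and Col6a3 (3.02, or 7.32 without PE+/- male 1, the one male with counts), with edgeR adjusted p from 0.112 to 0.408. Col13a1 was the one toward males (-3.33, edgeR adjusted p = 0.252, or -1.59 without PE+/- male 4).

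Of 67 tested matrix glycoproteins and proteoglycans, 3 were called (0.604% of all genes), Mfge8, Spock3 and Reln. In the list 8 were fully separate toward females and 5 toward males (5.33% and 4.31% of all genes). The median was -0.17. Mfge8, a secreted bridging protein of cell uptake and adhesion, had 305, 324, 326 and 380 CPM in females and 131, 154, 143 and 118 CPM in males. It was 2.45-fold higher in females (log2 fold change 1.29, SE 0.131, edgeR adjusted p = 0.00773), with narrow groups. Spock3, a testican proteoglycan, had 62.4, 72.5, 78.1 and 83.5 CPM in females and 26.7, 24.8, 21.6 and 12.8 CPM in males (1.79, SE 0.236, edgeR adjusted p = 0.021). Reln, the secreted glycoprotein reelin, had 21.7, 50.6, 89.3 and 68.3 CPM in females and 0.212, 0.273, 1.26 and 0 CPM in males. The females varied widely among themselves, yet the lowest was far above the highest male (7.01, SE 0.937, edgeR adjusted p = 0.0217). Brevican (Bcan, 35.3 and 14.4 CPM, 1.29, edgeR adjusted p = 0.0504) lay just outside. In the other direction Ccn3, a matricellular protein, had 2.03 CPM in females and 13.7 CPM in males (-2.73, edgeR adjusted p = 0.0729).

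In matrix remodeling 1 of 64 was called (median -0.29), against 0.604% of all genes. Fully separate were 7 toward females and 3 toward males (5.33% and 4.31% of all genes). Hpse2, a heparanase-like protein without heparanase activity, had 9.97, 9.17, 19.0 and 17.4 CPM in females and 4.52, 2.59, 2.17 and 2.92 CPM in males (log2 fold change 2.19, SE 0.34, edgeR adjusted p = 0.0386). Serpinh1, the collagen chaperone, had 637 and 433 CPM (0.56, edgeR adjusted p = 0.203), and the protease Ctsb overlapped (0.11). Outside these lists Cilp, a cartilage matrix protein, was higher in males, with 9.66, 1.95, 2.26 and 4.28 CPM in females and 49.5, 63.4, 37.2 and 35.3 CPM in males (-3.37, SE 0.535, edgeR adjusted p = 0.0391). The basement membrane had 0 of 23 called (median -0.14) and the integrins 0 of 19 (median 0.23), with Lamc1, Itga3 and Itgb1 overlapping.

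The markers of fibroblasts or pericytes, beside which the matrix values stand, had 1 of 12 past the threshold (Col1a2), against 0.604% of all genes. Of the 12, 7 had a log2 fold change above 0 (48.7% of all genes). Below 0, with overlapping groups, were Pdgfra (-0.72), Dcn (-0.52), Lum (-0.52), Ogn (-0.23) and Col1a1 (-0.12). The median over the 12 was 0.23. That median turned to -0.060 without PE+/- female 2 and to -0.0053 without PE+/- male 3, and was 0.034 without PE+/- female 1, 0.028 without PE+/- male 2, 0.15 without PE+/- female 3 and 0.48 without PE+/- female 4. Their summed level was 735 to 1253 CPM in females and 714 to 831 CPM in males, so the ranges overlapped. The lowest of them, Tagln, had means of 0.725 and 0.583 CPM, and their part in the matrix results was not tested. Rgs5, which made up most of that sum, had 674 ± 229 and 477 ± 106 CPM (edgeR adjusted p = 0.495).

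Of 83 tested genes of ER folding and translocation, 2 were called (0.604% of all genes), both higher in females. In the list 13 were fully separate toward females and 2 toward males (5.33% and 4.31% of all genes), and the median was 0.13. Creb3l1, an ER-bound transcription factor of the unfolded protein response family, had 22.3, 22.2, 45.5 and 26.4 CPM in females and 3.81, 4.91, 3.55 and 4.13 CPM in males. The difference was 7.07-fold (log2 value 2.82 with an SE of 0.278, edgeR adjusted p = 0.00773) and the males were close together. Fkbp11, a prolyl isomerase of the ER, had 66.4, 75.8, 97.0 and 85.7 CPM in females and 21.5, 31.5, 37.8 and 29.0 CPM in males (1.44, SE 0.202, edgeR adjusted p = 0.0257). The other fully separate genes toward females included Edem2, of ER-associated degradation (100 and 55.2 CPM, 0.86, edgeR adjusted p = 0.061), Sec61b, of the translocon (313 and 178 CPM, 0.82, 0.0858), Spcs1 and Sec11c, of the signal peptidase (0.59 and 0.67), and Ostc, of oligosaccharyl transferase (0.60). Sel1l (-0.46) and Creb3l2 (-0.34) were the 2 toward males.

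Past the ER, Tmed3, a cargo receptor between ER and Golgi that is in no list, had 946, 1057, 1006 and 1174 CPM in females and 539, 596, 635 and 467 CPM in males. Every female was above every male by a wide margin (log2 fold change 0.90, SE 0.135, edgeR adjusted p = 0.0335). Dpm3, a subunit of the dolichol-phosphate mannose synthase that feeds glycosylation, had 187 ± 18 and 94.7 ± 5.90 CPM (0.98, edgeR adjusted p = 0.0137). Regulated exocytosis had 1 of 86 genes called higher in females and 1 in males, against 0.381% and 0.224% of all genes, and a median of -0.087. Fully separate were 4 toward females and 10 toward males (5.33% and 4.31% of all genes). Rab3d, a small GTPase of secretory granules, had 320, 423, 384 and 397 CPM in females and 195, 226, 230 and 199 CPM in males (0.84, SE 0.128, edgeR adjusted p = 0.034). Its relative Rab3b had 83.5 CPM in females and 182 CPM in males (-1.12, edgeR adjusted p = 0.0753). Unc13c, a vesicle priming factor, had 1.11, 1.54, 1.13 and 1.01 CPM in females and 5.29, 4.23, 3.67 and 4.77 CPM in males (-1.90, SE 0.253, edgeR adjusted p = 0.0217). Both sexes were low in Unc13c, but no value overlapped.

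The granins and peptide processing enzymes gave 1 call of 30 tested (median -0.0093), against 0.604% of all genes. Fully separate were 2 genes toward females and 2 toward males (5.33% and 4.31% of all genes). The call was Aebp1, a secreted matrix-binding protein with a carboxypeptidase-like domain, which is not known to process hormones. It had 26.0, 86.3, 274 and 166 CPM in females and 9.11, 7.87, 6.44 and 7.12 CPM in males. The females were spread widely but all above the males (log2 fold change 4.18, SE 0.658, edgeR adjusted p = 0.0387). Slc30a8, a zinc transporter of granules, had 1.11, 3.65, 7.26 and 4.22 CPM in females and 0 CPM in each male. The female mean was at least 5.64-fold over the male floor, and Slc30a8 just missed the threshold (edgeR adjusted p = 0.0503). Scg2, secretogranin, had 3653 CPM in females and 7005 CPM in males (-0.94, edgeR adjusted p = 0.191), and Pcsk1, a prohormone convertase, had 175 and 343 CPM (-0.97, edgeR adjusted p = 0.126). These 2 were separate toward males. Chgb overlapped, with 14295 ± 6398 and 9333 ± 2240 CPM.

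**Figure D3:**
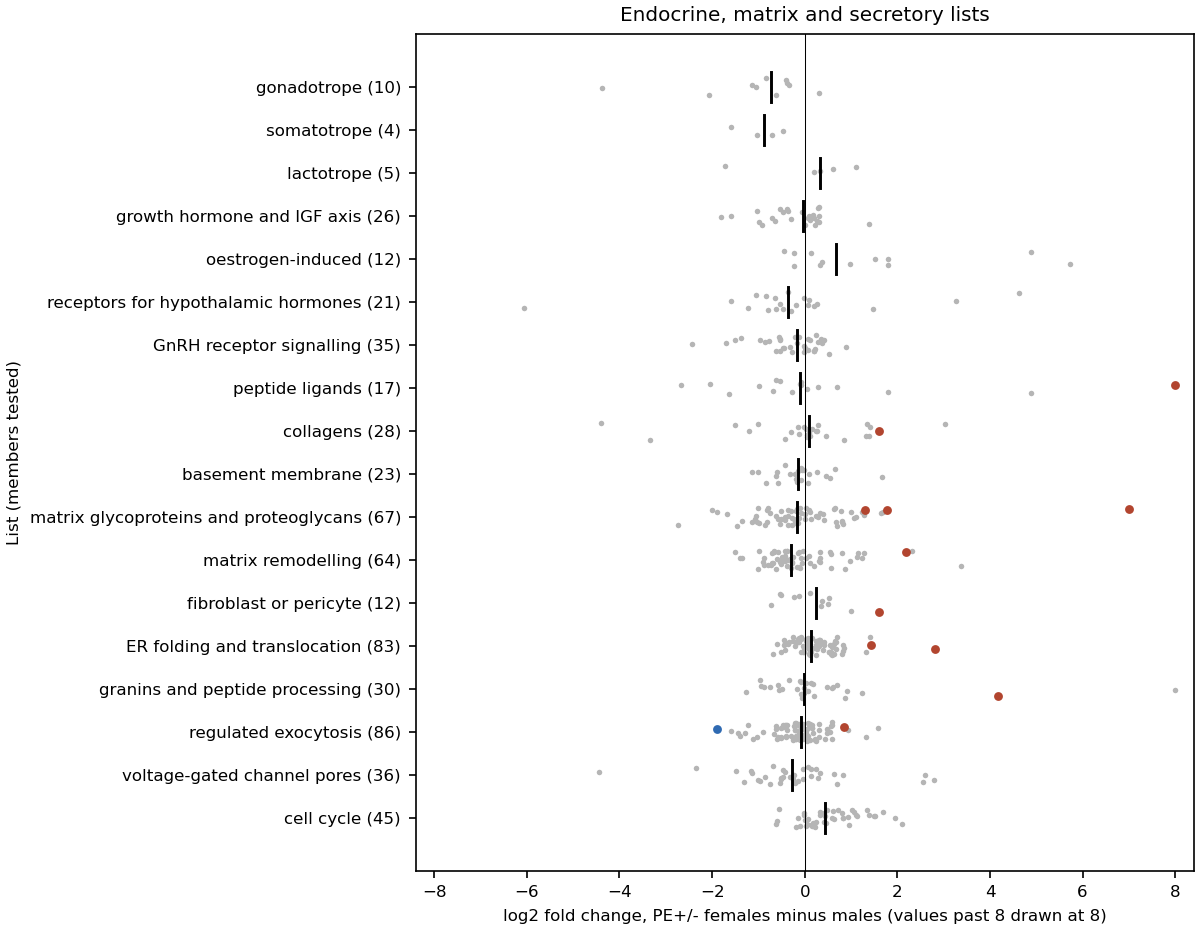
Log2 fold change, PE+/- females minus males, of each tested member of 18 lists, with 1 point a gene and a bar at the list's median. Colored points are past an edgeR adjusted p of 0.05 (red higher in females, blue in males), grey points are not, and values past 8 are drawn at 8. Medians lie between -0.87 (somatotrope) and 0.67 (estrogen-induced).

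Of the remaining lists, the voltage-gated channel pores had 0 of 36 called and a median of -0.28. In this list 4 were fully separate toward females and 7 toward males (5.33% and 4.31% of all genes). Their summed level was 394 to 501 CPM in females and 601 to 764 CPM in males. Kcna5, a potassium channel, had 135, 114, 76.4 and 83.4 CPM in females and 257, 283, 196 and 183 CPM in males (-1.17, edgeR adjusted p = 0.0742), and Kcnh2 overlapped (0.14). Cell cycle genes had 0 of 45 called, with 4 fully separate toward females and 0 toward males (5.33% and 4.31% of all genes). Of the 45, 37 were above 0 (48.7% of all genes), with a median of 0.44. The levels behind that median were low: the list summed to 306 to 406 CPM in females and 268 to 345 CPM in males. Pcna and Rrm1, the highest in CPM, had log2 fold changes of 0.073 and 0.060. DESeq2 put 2 of the list past the threshold toward females, Ccnb2 (edgeR log2 fold change 2.11) and Cdca8 (1.12), and 0 toward males. Immediate early genes had 0 of 22 called (median -0.19), with Junb at 182 to 846 CPM in females and 515 to 1333 CPM in males, and Btg2 overlapping. The lineage transcription factors had 0 of 30 called (median -0.22), with Pou1f1 (0.39) and Six6 (0.39) overlapping. Markers of other cell types, fibroblasts and pericytes aside, had 0 called, and medians were -0.086 over 11 tested stem or folliculostellate, -1.20 over 3 posterior lobe, 0.16 over 12 endothelial, 0.00097 over 11 immune and 0.22 over 4 erythroid genes. Single libraries stood out in some of them: Cyp2f2 had 532 CPM in PE+/- female 1 against 182 to 206 CPM in the other females, and Plvap had 285 CPM in PE+/- male 1 against 12.0 to 40.1 CPM in the other males. Col25a1 had 1.27, 25.0, 4.70 and 63.7 CPM in the males. Sox9 (-0.66), Aqp4 (0.35), Kdr (0.025), C1qb (0.13), H2-Aa (0.49), Hbb-bs (0.29) and Hba-a1 (0.031), among the highest in CPM of their lists, overlapped. The posterior lobe median was -0.0094 without PE+/- male 4, and the summed level of its genes was 15.6 to 30.7 CPM in females and 12.6 to 106 CPM in males.

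The PE-/- libraries, which took no part in choosing the 100 genes, give the same comparison of the sexes in mice without the enhancer. There 3 of 17568 autosomal genes (0.0171%) were past the threshold, 1 higher in females (0.00569%) and 2 in males (0.0114%), and 585 (3.33%) had an unadjusted p under 0.05. DESeq2 put 16 and 15 genes past it there. Of the 100, 92 were tested in PE-/- mice, 0 were past the threshold, and 35 (38%) had the sign of the PE+/- difference, against 47.3% of all genes. For the female-higher genes tested in both, the median log2 fold change was 1.76 in PE+/- mice and -0.063 in PE-/- mice, and for the male-higher genes it was -1.4 and 0.11. The 92 values in PE-/- mice lay between -1.68 and 1.21.

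**Figure D4:**
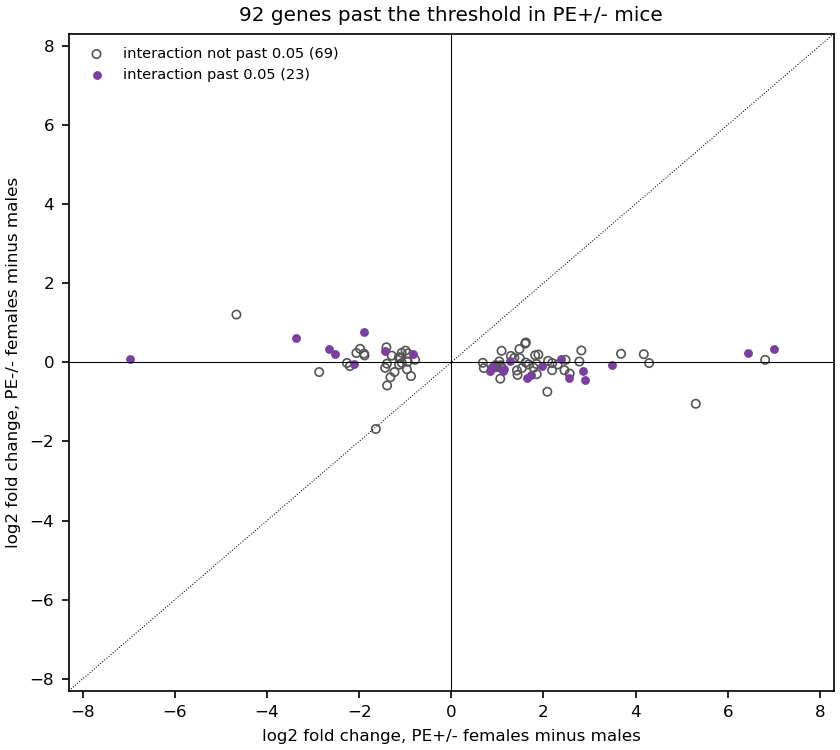
Log2 fold change between females and males in PE+/- mice (n = 4 each) against the same in PE-/- mice (3 females, 4 males) for the 92 genes past the threshold in PE+/- mice and tested in both. Filled points (23) are past an adjusted p of 0.05 in the interaction of sex and genotype, the dotted line marks equal differences, and the points lie along the horizontal axis.

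The levels of the 100 genes in PE-/- mice are set here beside the PE+/- levels that chose the genes, as a description with no test. On log2(CPM + 0.5) over all 15 libraries, the PE-/- mean was closer to the PE+/- males in 59 of the 63 female-higher genes (93.7%). Over all 16548 autosomal genes tested, which were not chosen by these levels, it was closer to the males in 62.6%. Of the other 11 libraries, 4 are the PE+/- males, which lay below the females by the choice of the genes. All 4 PE+/- females lay above all 11 in 59 of the 63 genes, against 472 of all 16548. Crhbp is an example, with at most 0.22 CPM in the PE-/- females and 0.46 CPM in the PE-/- males, as is Col1a2, with 36.7 to 56.9 CPM and 28.7 to 73.0 CPM. CPM values of single genes, here and elsewhere, were on library sizes scaled within each genotype. The counts of genes in this paragraph used sizes scaled over all 15 libraries. Of the 37 male-higher genes, the PE-/- mean was closer to the PE+/- males in 22 (59.5%, near the 62.6% of all genes) and to the females in 15. In 12 of the 37 the 4 PE+/- males lay above all the other 11 libraries, against 55 of all 16548 genes. Among these 12 were Ramp1 (7.11 to 14.4 CPM in the PE-/- libraries) and Megf10 (2.28 to 6.09 CPM). In 20 of the 37 the 4 PE+/- females lay below all the others, against 257 of all 16548. Among these 20 were Cilp (38.4 to 124 CPM), Alcam (160 to 299 CPM) and Zfp423 (36.6 to 75.5 CPM). Here too the 4 libraries of the other PE+/- sex were apart by the choice of the genes.

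The interaction of sex and genotype, which uses the PE+/- difference that chose the 100 genes, had 27 of 18601 autosomal genes past the threshold (0.145%), 18 with the PE+/- difference above the PE-/- one (0.0968%) and 9 below (0.0484%), and 24 of them were among the 100. Without 1 library the number was 5 (PE-/- female 3 left out) to 66 (PE+/- female 1 left out), and DESeq2 put 217 above and 158 below. Ramp1 had an interaction of -2.75 (SE 0.303, edgeR adjusted p = 0.00518), Cd63 1.34 (adjusted p = 0.00761), Megf10 -2.99 (0.0156) and Cgref1, a growth regulator with EF-hand motifs, 2.95 (0.0171). Cgref1 had 55.1, 151, 140 and 105 CPM in the PE+/- females, 18.2, 20.1, 23.4 and 14.7 CPM in the PE+/- males and 15.5 to 26.9 CPM in the PE-/- libraries, so that the PE+/- females stood alone. The gonadotropin genes were not shown to differ in their sex difference, with interactions of -1.36 for Lhb (edgeR adjusted p = 0.452), -1.88 for Fshb (0.597) and -0.33 for Cga, also not past the threshold. For Grem1 the interaction was -4.34 (edgeR adjusted p = 0.118).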

How the data were processed

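Whole pituitary RNA was sequenced in 15 libraries, of which the 8 PE+/- libraries (4 females, 4 males) are the subject here and the 7 PE-/- libraries are for comparison. Trimming by cutadapt, alignment to mm10 by STAR and gene counts by featureCounts were done by the authors. The deposited table holds estimated counts per gene, not scaled to library size, 1 column a sample. Its row names are those of assembled loci, a step not given in the sources used here, and about 4 counts stand for 1 fragment, so counts are not independent molecules. The annotation release and the handling of strand are not given either, so overlapping genes, antisense genes and near-identical copies are uncertain.

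Rows were matched to gene annotation by Ensembl ID (26510 rows) or else by gene symbol (28935 rows). Of 55523 rows 51223 matched autosomal genes. X- and Y-linked genes (4185 rows) and the 78 unmatched rows stayed in the library totals and fits but are not reported. Genes were filtered with filterByExpr (minimum count 10) and tested with edgeR 4.0.16 (R 4.3.3) by the two-sided quasi-likelihood test on trimmed-mean-scaled libraries, one fit per genotype and one over all 15 libraries for the interaction, with Benjamini-Hochberg adjusted p under 0.05 as the threshold. DESeq2 1.42.0, other size factors, filters and scalings, a replicate block, and leaving out each library were the alternatives. The scripts were tested on simulated data. Depth was 12982794 to 23451887 counts a PE+/- library, and a floor of 12 counts (3 fragments) covers counting error only. Fitted fold changes of genes at 0 in one sex depend on the prior count and are no bound.

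The members and gene lists were chosen with earlier results of these data known, and the listed genes are not independent evidence. Named by rule were Nr5a1, the hormone genes and gonadotrope markers, the 15 genes of smallest adjusted p in each direction (symbol, separate groups, mean of at least 20 counts), up to 6 called or else the 2 members of highest CPM of each list, and up to 5 genes of the interaction. One gene that the rule named is not reported here. Other genes named were chosen after their values were seen. Promoters are from RefSeq, GRCm38.p6.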

Additional observations from a re-analysis of the deposited data

Results flagged for a closer look

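Among 51 genes looked at in 101 groups of 4 libraries, 6 values, in 3 libraries, lay farther from the others of their group than Dixon's 95% critical value allows, and chance flags about 1 in 20 groups. PE+/- female 4 had 26.7 CPM of Gm4319 (13.7 to 14.4 in the other females) and 1707 CPM of Fshb (161 to 364). PE+/- female 3 had 19.8 CPM of Pak7 (10.9 to 11.6 in the other females). PE+/- male 3 had 11.5 CPM of 9430064I24Rik (13.9 to 14 in the other males), 70.4 CPM of Zfp423 (56.5 to 58.5) and 294 CPM of Tgfbr3l (29.7 to 63.0).

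The difference between females and males itself differed between PE+/- and PE-/- mice in 27 genes by the edgeR interaction of sex and genotype. Values are log2, the PE+/- difference minus the PE-/- difference, over 4 and 4 PE+/- and 3 and 4 PE-/- libraries. Above 0 were Crhbp (16.76), Gm17056 (14.03), Reln (6.67), Gm15577 (6.21), Gm4319 (3.57), C1qtnf6 (3.36), Kcnip4 (3.08), Cgref1 (2.95), Cldn8 (2.29), Sema3a (2.06), Olfm3 (2.05), AC166110.4 (2.04), Rnaseh2c (1.44), Cd63 (1.34), Cryz (1.32), Elovl4 (1.26), Rab3d (1.07) and Tmed3 (1.02). Below 0 were Gm42495 (-7.23), Cilp (-3.996), Megf10 (-2.99), Ramp1 (-2.75), Unc13c (-2.67), 1500009L16Rik (-2.08), Masp1 (-1.73), Plxdc2 (-1.51) and Mgat4c (-1.05). Gm17056, Plxdc2 and Rnaseh2c were not among the 100 genes past the threshold in PE+/- mice. Kcnip4 and Masp1 overlap other genes. With these added, the log2 difference in PE+/- mice went from 2.81 to 1.32 for Kcnip4 and from -1.43 to -0.31 for Masp1. The values of genes near 0 counts in a group, such as Crhbp and Gm42495, depend on the prior count and are no bound.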

How the results depend on the processing

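Each of the 100 genes that was tested under an alternative kept its direction there, but the number of calls varied. Counts are given as higher in females and higher in males. In PE+/- mice, 63 and 37 became 467 and 385 with DESeq2 (97 of the 100 shared), 210 and 182 with all 15 libraries in one fit (88 shared), 41 and 14 with no low-count filter, 83 and 53 with counts divided by 4, 75 and 32 with library totals, and 17 to 60 and 4 to 38 without 1 library. In PE-/- mice, 1 and 2 became 16 and 15 with DESeq2 and 1 to 4 and 1 to 16 without 1 library. In the interaction, 18 above and 9 below became 217 and 158 with DESeq2 and 4 to 39 and 1 to 27 without 1 library. With the replicate number as a block, 0 and 0 genes were past the threshold in PE+/- mice (1600 at an unadjusted p under 0.05), 0 and 0 in PE-/- mice (598) and 4 and 4 in the interaction. The numbers share no stated pairing, and deviations of same-numbered females and males correlated at -0.0992 to -0.00329. The cause of these shifts was not tested. Without 1 library, list medians also turned sign for melanotrope (-0.34 to 0.26), stem or folliculostellate (-0.22 to 0.21), immune (-0.098 to 0.16), steroid metabolism (-0.24 to 0.074) and granin (-0.15 to 0.16) genes.

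Under these settings, signs turned only in named genes that were not past the threshold. Without 1 library, log2 values ran from -0.024 to 0.21 for Ccnd1, -0.023 to 0.20 for Ctsb, -0.36 to 0.32 for Cyp2f2, -0.13 to 0.19 for Dio2, -0.24 to 0.082 for Esr1, -0.053 to 0.023 for Gna11, -0.21 to 0.38 for Hba-a1, -0.22 to 0.14 for Itgb1, -0.0012 to 0.32 for Kcnh2, -0.16 to 0.15 for Kdr, -0.33 to 0.28 for Oacyl, -0.059 to 0.18 for Pcna, -0.33 to 0.064 for Pcsk2, -1.27 to 0.84 for Plvap, -0.38 to 0.15 for Pomc, -0.10 to 0.15 for Rrm1 and -0.52 to 0.042 for Tshb. Under other settings, Gna11 was -0.0027 with DESeq2, -0.0024 with its size factors, -0.0042 with no filter and -0.0015 with all libraries. With the block, Kdr was -0.0048, Oacyl 0.038 and Plvap 0.31. With library totals, Dio2 was 0.036 and Itgb1 0.014. Tgfbr3l was -0.069 with rows of a locus summed.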
